A study of Homo sapiens with 30 samples.

Results

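TXNIP, the gene of thioredoxin-interacting protein, was followed through 30 RNA-seq libraries of BEAS-2B cells, an immortalised human bronchial epithelial line, after exposure to the output of a hookah (water pipe). It is 1 of 22538 gene names in the deposited per-sample tables, where it has 1 row, and 1 of 8531 genes that passed the filter on low values. TXNIP was chosen because it was much lower than in control wells 2 h after exposure. Its values at 2 h, and every difference that uses them, are therefore given as a description with no test, and tests are given only for the wells harvested at 24 h.

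The cells were exposed for 30 min on a rocker and harvested 2 h or 24 h later, with 3 wells in each of 10 groups. At each time there was a control exposure, charcoal alone, burning charcoal under a herbal, tobacco-free shisha (herbal shisha), burning charcoal under tobacco shisha (tobacco on charcoal), and tobacco shisha warmed by an electronic heater in place of charcoal (the heater). Each dose was the highest one that released no lactate dehydrogenase, a marker of broken cells, by 24 h, so doses were matched by this limit and not by smoke mass. The sources used here do not give what control wells received, or whether wells sharing a group came from separate cultures, so p-values measure the spread between these wells, which may be technical.

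TXNIP belongs to the alpha-arrestins, adaptor proteins that steer membrane proteins towards internalisation. It binds reduced thioredoxin and blocks its activity, and it lowers glucose entry by promoting removal of the glucose transporter GLUT1 (gene SLC2A1) from the cell surface. Its transcription is driven by glucose phosphates through the factor pair MondoA (gene MLXIP) and MLX, which bind a carbohydrate response element in its promoter, so TXNIP messenger RNA is widely used as a readout of intracellular glucose. Both the messenger and the protein are short-lived, and the AMP-activated kinase and the ubiquitin ligase ITCH mark the protein for breakdown.

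TXNIP lies on the minus strand of chromosome 1, at chr1:145992435-145996579 in RefSeq's GRCh38.p14. The promoter is shown because it holds the element through which glucose is known to act on the gene, and that of ARRDC4, the closest relative of TXNIP in its known glucose response, is shown beside it. Each stretch runs 5′ to 3′ on the strand of the gene, from 190 to 41 bases before the RefSeq start. The TXNIP stretch is chr1:145996620-145996769, minus strand, and the ARRDC4 stretch is chr15:97960513-97960662, plus strand. Capitals mark matches to the carbohydrate response element, to the forkhead motif and to the CCAAT box, in either orientation.
TXNIP: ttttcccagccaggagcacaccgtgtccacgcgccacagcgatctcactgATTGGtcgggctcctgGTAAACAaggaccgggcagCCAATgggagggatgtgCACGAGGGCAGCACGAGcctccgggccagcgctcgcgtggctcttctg
ARRDC4: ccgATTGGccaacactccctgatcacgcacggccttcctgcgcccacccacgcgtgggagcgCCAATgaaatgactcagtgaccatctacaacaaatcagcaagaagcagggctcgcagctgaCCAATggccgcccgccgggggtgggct
The carbohydrate response element was searched as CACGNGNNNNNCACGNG on both strands. TXNIP has 1 match, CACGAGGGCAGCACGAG, 88 to 72 bases before the start (chr1:145996651-145996667). Of 35116 RefSeq windows covering the 250 bases before a start, 16 (0.0456%) hold this pattern. The TXNIP window also holds the forkhead motif GTAAACA at 124 to 118 bases (2.98% of all windows) and CCAAT boxes at 140 to 136 bases, in reverse orientation, and at 105 to 101 bases (32% of windows). GCGTG, the core of the xenobiotic response element bound by the aryl hydrocarbon receptor, occurs in the TXNIP window at 163 to 159 bases, reversed, and at 54 to 50 bases, as it does in 32.2% of windows. TGACNNNGC, the core of the antioxidant response element, is not among the letters of the TXNIP window and is found in 10.9% of windows. The ARRDC4 window holds no match to the carbohydrate response element as spelled here. The TXNIP row of the deposited tables carries the identifier of a second RefSeq transcript, which starts inside the gene at position 145995744. The 250 bases before that start hold no match to the element either, and the sources used here do not say whether the deposited value covers both transcripts.

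Values are FPKM, fragments scaled for transcript length and library size, as the submitters deposited them. In each library 7598 to 7944 genes reached 1 FPKM, and replicate wells correlated at 0.983 to 0.992 across genes. Read counts were not used here, but low FPKM values fall on steps of whole reads. Comparing these steps between libraries puts the relative depth at 0.753 to 1.58 times that of the median library. The control wells at 2 h stood at 1.033, 1.332 and 1.576 and the exposed wells at 2 h between 0.758 and 1.238; at 24 h the control wells (0.834 to 1.04) lay inside the range of the exposed wells (0.753 to 1.499). The part of depth in the TXNIP differences was not tested. Of 8 epithelial markers, KRT8, KRT18 and KRT19 were tested, with a summed level of 738 to 1208 FPKM. EPCAM, CDH1 and KRT5, which define epithelium, stayed at group means of at most 0.78 FPKM, while VIM, COL1A1, COL1A2, THY1 and PDGFRB of 7 mesenchymal markers were expressed (summed list 896 to 1220 FPKM). Of 5 immune markers, CD14 and CD68 passed the filter, and no endothelial, ciliated or secretory marker did. In a culture, fewer expressing cells and less RNA per cell cannot be told apart.

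At 2 h, TXNIP was below control in every well of all 4 exposures, and charcoal alone gave the lowest values. The 3 control wells held 20.4, 21.6 and 18.7 FPKM (mean 20.2 ± 1.47, SD, n = 3), which placed TXNIP above 75.7% of tested genes. The charcoal wells held 3.29, 3.46 and 5.95 FPKM (4.23 ± 1.49), 20.9% of control. Tobacco on charcoal gave 6.41, 5.72 and 6.82 FPKM (6.32 ± 0.557), 31.2% of control. The third charcoal well reached into the range of the tobacco wells, so these lowest groups overlap. Herbal shisha gave 11.2, 10.8 and 12.8 FPKM (11.6 ± 1.06), 57.2% of control. Tobacco shisha on the electronic heater gave 11.9, 11.2 and 13.9 FPKM (12.3 ± 1.39), 61% of control. Herbal shisha and the heater overlapped each other, and all their wells lay above all wells of charcoal alone and of tobacco on charcoal.

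On the scale of log2(FPKM + 1), TXNIP at 2 h differed from control by -2.05 after charcoal alone, -1.54 after tobacco on charcoal, -0.76 after herbal shisha and -0.67 after the heater (standard error 0.15 each). Charcoal alone placed TXNIP lowest of the 8531 genes tested, and tobacco on charcoal sixth from the bottom. After herbal shisha and after the heater its difference ranked 147 and 144 from the lowest. Called genes, those with a limma adjusted p under 0.05, made up 24.4% of tested genes after charcoal alone, 38.2% after herbal shisha, 35.2% after tobacco on charcoal and 34.0% after the heater. These 4 differences share the same 3 control wells. The median gene differed from control by -0.04 to -0.08 in these comparisons, far from the TXNIP values.

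**Figure D1:**
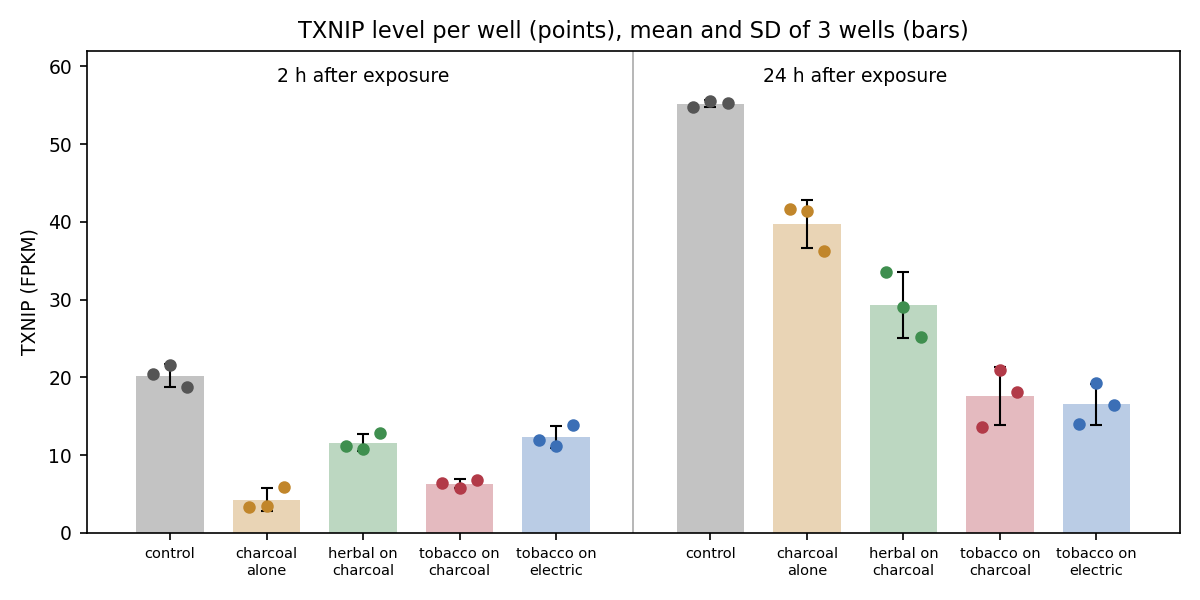
TXNIP level in FPKM (vertical axis) in each of the 30 wells, grouped by exposure and time; points are wells, and bars give the mean with SD of 3 wells. At 2 h the lowest group is charcoal alone (mean 4.23), and at 24 h the lowest are tobacco on charcoal (17.6) and on the electronic heater (16.5), with control wells at 55.2.

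At 24 h, TXNIP was below control in every exposed well, but the order of the exposures was another one. Both tobacco conditions were lowest, herbal shisha was intermediate and charcoal alone was closest to control. The control wells held 54.8, 55.6 and 55.3 FPKM (55.2 ± 0.434), above 90.2% of tested genes. Charcoal alone gave 41.6, 41.4 and 36.2 FPKM (39.7 ± 3.04), 71.9% of control. Herbal shisha gave 33.6, 29 and 25.2 FPKM (29.3 ± 4.2), 53% of control. None of these wells overlapped with control, and herbal shisha lay wholly below charcoal alone. Tobacco on charcoal gave 13.6, 21 and 18.1 FPKM (17.6 ± 3.77), 31.8% of control, and the heater gave 14, 19.2 and 16.4 FPKM (16.5 ± 2.64), 29.9% of control. The wells of the 2 tobacco groups were interleaved, and all of them were below all wells of the 3 other groups. The control wells lay closer together than those of any exposed group.

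TXNIP fell after herbal shisha by 0.90 on the log2 scale (SE 0.15, 95% interval -1.22 to -0.58, limma adjusted p = 0.000207), and 26.8% of all tested genes were called in that comparison. It fell after tobacco on charcoal by 1.62 (interval -1.94 to -1.30, limma adjusted p = 4.94e-08), where 44.5% of genes were called. After tobacco shisha on the heater it fell by 1.69 (interval -2.01 to -1.37, limma adjusted p = 2.56e-09), where 63.8% of genes were called. Charcoal alone gave -0.47 (interval -0.79 to -0.15, limma adjusted p = 0.0571), which missed the threshold of 0.05, in a comparison with 9.87% of genes called. All 3 charcoal wells were below all 3 control wells, and this call depended on the processing. It passed in a fit to these 2 groups alone (adjusted p = 0.00708), after median-of-ratios scaling (0.0415) and with a replicate block (0.0418). The adjusted p ranged from 0.00708 to 0.196 across all alternatives tried. From the lowest of the 8531 differences, TXNIP ranked 123 after charcoal, 55 after herbal shisha, 15 after tobacco on charcoal and 26 after the heater. The 4 comparisons use the same control wells, so they are not independent of each other.

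**Figure D2:**
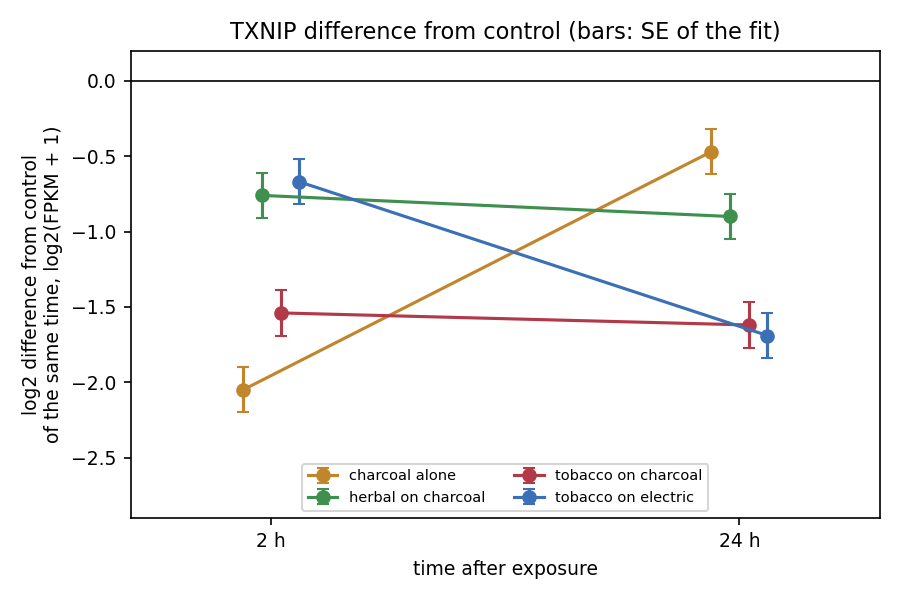
Difference of TXNIP from the control of the same time, in log2(FPKM + 1), for the 4 exposures at 2 h and 24 h; points are fitted differences, bars their standard errors (0.15), and lines join the same exposure. From 2 h to 24 h charcoal alone moves towards control (-2.05 to -0.47) and the heater away from it (-0.67 to -1.69), while tobacco on charcoal (-1.54 and -1.62) and herbal shisha (-0.76 and -0.90) stay near their early values.

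All 6 pairs of exposures were compared directly at 24 h, each over the 8531 genes. TXNIP was lower after tobacco on charcoal than after charcoal alone, with a difference of -1.15 (interval -1.47 to -0.83, limma adjusted p = 3.23e-06; 44.1% of genes called). It was lower after the heater than after charcoal alone, at -1.22 (interval -1.54 to -0.90, limma adjusted p = 3.63e-07; 63.0% called). Herbal shisha was also below charcoal alone, by -0.43 (interval -0.75 to -0.11, limma adjusted p = 0.0353; 31.5% called). That last call did not survive every alternative: the adjusted p ranged from 0.0187 to 0.177 and passed the threshold no longer without charcoal replicate 1 or 2, without herbal replicate 2 or 3, with no filter (0.0609) or with a pseudocount of 0.1 (0.0521).

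Tobacco in the shisha was the labelled difference between the tobacco and herbal groups on charcoal, and TXNIP was lower with tobacco by -0.72 (interval -1.04 to -0.40, limma adjusted p = 0.0104). Only 5.12% of genes were called in that comparison, and TXNIP ranked 39 from the lowest. The call was lost when the spread came from these 2 groups alone (adjusted p = 0.34) or without replicate 1 of either group, with adjusted p from 0.00557 to 0.34 over all alternatives. The heater with tobacco was below herbal shisha by -0.79 (interval -1.11 to -0.47, limma adjusted p = 0.000149; 55.9% called). Between the 2 tobacco groups, both with tobacco shisha but with another heat source, TXNIP differed by -0.07 (interval -0.39 to 0.25, limma adjusted p = 0.738), while 47.8% of all genes were called. The interval leaves room for a difference of up to 0.39 in size, and the p does not show that the levels are alike.

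The same pairs at 2 h, given with no test, had another order. Herbal shisha and the heater were above charcoal alone, by 1.30 and 1.38, and tobacco on charcoal was above it by 0.52. Tobacco on charcoal was below herbal shisha by -0.78, close to its value at 24 h of -0.72. The heater exceeded tobacco on charcoal by 0.86 at 2 h, against -0.07 at 24 h, and differed from herbal shisha by 0.08, against -0.79 at 24 h. The difference in TXNIP kept its sign between the times in the tobacco and herbal pair on charcoal and had the opposite sign in the other pairs, tobacco on charcoal against charcoal alone (0.52 and -1.15) among them.

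Within each condition TXNIP was higher at 24 h than at 2 h, in control wells too. The control mean at 24 h was 2.73 times that at 2 h. The ratio was 9.39 for charcoal alone, 2.53 for herbal shisha, 2.78 for tobacco on charcoal and 1.34 for the heater. On the log2(FPKM + 1) scale these differences were 1.41, 2.99, 1.26, 1.32 and 0.39 in the same order. Charcoal alone had the highest such difference of the 8531 genes for TXNIP, and the heater the smallest of the 5 conditions. Between the times the median gene moved by 0.08 after charcoal alone, 0.11 after herbal shisha, 0.12 after tobacco on charcoal and 0.09 after the heater. In control wells it moved by -0.01. After scaling these values lay between -0.01 and 0.01. The TXNIP differences are read relative to the unscaled shifts, which weigh most for the heater with its difference of 0.39. Ordered by mean over the 10 groups, the heater at 24 h, tobacco on charcoal at 24 h and the control at 2 h overlapped as neighbours, as did charcoal alone and tobacco on charcoal at 2 h, and herbal shisha and the heater at 2 h. The other neighbours did not overlap, but the highest heater well at 2 h (13.89 FPKM) and the lowest heater well at 24 h (13.96 FPKM) almost met.

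The genes around TXNIP were taken from 5 lists: other alpha-arrestins, the thioredoxin system, regulators of TXNIP and glucose sensing, glucose uptake with its first metabolic steps, and the inflammasome. Of 68 genes, 55 are in the tables and 48 were tested. At 2 h, 11 of 48 were called after charcoal alone (22.9%, against 24.4% of all genes), 22 after herbal shisha (45.8% against 38.2%), 19 after tobacco on charcoal (39.6% against 35.2%) and 19 after the heater (39.6% against 34.0%). At 24 h the counts were 6 after charcoal (12.5% against 9.87%), 20 after herbal shisha (41.7% against 26.8%), 26 after tobacco on charcoal (54.2% against 44.5%) and 37 after the heater (77.1% against 63.8%). Fitting charcoal and control alone at 24 h gave 12 in place of 6. The share of list genes was below that of all genes after charcoal alone at 2 h and above it in the other comparisons, most of all after herbal shisha at 24 h.

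Of 5 other alpha-arrestins, 4 were tested. ARRDC3, an adaptor for receptors at the cell surface, held 1.46, 1.86 and 1.56 FPKM in control wells at 2 h and 5.54, 5.07 and 6.26 after herbal shisha, with no overlap. It rose at 2 h after herbal shisha by 1.33 (limma adjusted p = 2.77e-06), after the heater by 1.16 (1.93e-05) and after tobacco on charcoal by 0.79 (0.00124). After charcoal alone, where TXNIP was lowest, ARRDC3 wells held 1.03, 1.03 and 1.72 FPKM (-0.23, limma adjusted p = 0.371). At 24 h ARRDC3 fell after herbal shisha by 0.81 (limma adjusted p = 0.00185) and after tobacco on charcoal by 1.22 (9.74e-06). ARRDC4, which shares the glucose response of TXNIP in other cells, held 3.78, 4.22 and 4.01 FPKM in control wells at 2 h and 2.42, 2.66 and 3.36 after charcoal alone. It fell there by 0.40 (limma adjusted p = 0.00536), after tobacco on charcoal by 0.35 (0.00859, lost on scaling at 0.0561) and after the heater by 0.47 (0.000855). At 24 h after the heater, where TXNIP fell by 1.69, ARRDC4 wells held 6.05, 5.1 and 7.42 FPKM against 4.86, 4.81 and 4.76 in control. This rise of 0.30 (limma adjusted p = 0.0144) was no longer called without heater replicate 3 (0.18, 0.143) or in a fit to the 2 groups alone (0.0596). It fell by 0.30 after tobacco on charcoal (limma adjusted p = 0.0213; 0.0532, 0.0503 and 0.0881 without control replicate 1, control replicate 2 or tobacco replicate 1). ARRDC2 rose after the heater at 24 h by 0.75 (limma adjusted p = 1.9e-06), with wells of 7.25, 5 and 8.13 FPKM against 3.86, 3.48 and 3.36 in control, and ARRDC1 fell there by 0.41 (0.00562).

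In the list of the thioredoxin system, which includes TXN, the binding partner of TXNIP, 16 of 23 genes were tested. At 24 h, 1 rose and 2 fell after charcoal alone, 5 rose and 1 fell after herbal shisha, 8 rose and 2 fell after tobacco on charcoal, and 7 rose and 5 fell after the heater, with list medians of 0.04, 0.18, 0.19 and 0.02 against 0.02 to 0.04 for all genes. Of all genes, 6.05%, 16.5%, 25.9% and 34.3% were called higher and 3.82%, 10.4%, 18.6% and 29.5% lower in these comparisons. TXN, the thioredoxin that TXNIP inhibits, held 282, 266 and 294 FPKM in control wells at 24 h, 423, 396 and 301 after tobacco on charcoal and 443, 392 and 471 after the heater. It rose in both, by 0.40 (limma adjusted p = 0.00316) and 0.63 (1.2e-05), the groups in which TXNIP was lowest at 24 h. At 2 h TXN rose after herbal shisha by 0.30 (limma adjusted p = 0.0232, lost without 4 of the 6 wells in turn at 0.0588 to 0.0814) and after the heater by 0.36 (0.00844). After charcoal alone and tobacco on charcoal, where TXNIP was lowest at 2 h, TXN gave 0.14 (limma adjusted p = 0.34) and 0.15 (0.272; called at 0.27 on scaling, 0.0454). PRDX1, a peroxidase that thioredoxin recharges, rose in all 4 exposures at 24 h, by 0.23, 0.46, 0.68 and 0.97 from charcoal to herbal shisha, tobacco on charcoal and the heater (limma adjusted p from 9.79e-13 to 0.00515). At 2 h PRDX1 rose after herbal shisha by 0.17 and after the heater by 0.19 (limma adjusted p = 0.00968 and 0.00547), each lost without replicate 3 of that exposure (0.0541 and 0.0522). SRXN1, which repairs overoxidised peroxiredoxins, rose by 0.43, 0.64 and 1.14 in the last 3 of these (limma adjusted p from 3.97e-13 to 1.23e-05) and gave 0.04 after charcoal alone (0.729). At 2 h SRXN1 rose in all 4 exposures, by 0.45, 0.64, 0.57 and 0.22 (limma adjusted p from 5.07e-09 to 0.00402). TXNRD1, the reductase that recharges thioredoxin, rose at 2 h in the 3 charcoal exposures by 0.66, 0.57 and 0.60 (limma adjusted p from 5.8e-08 to 4.16e-07), with 0.02 after the heater (0.826), and was called in no comparison with control at 24 h.

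Among 16 regulators, 12 were tested. MLXIP, encoding the glucose sensor MondoA, fell at 2 h after herbal shisha by 0.47 (limma adjusted p = 0.0238) and after the heater by 0.78 (0.000477), and gave -0.11 after charcoal alone (0.664), where TXNIP was lowest. The MLXIP call after herbal shisha was lost on scaling (adjusted p = 0.0807) and without replicate 1 or 3 of either group (0.0554 to 0.0873). ITCH fell in the same pair of exposures, by 0.46 (limma adjusted p = 0.00791) and 0.43 (0.0151), and neither call held without replicate 3 of that exposure (-0.23, adjusted p = 0.0966, and -0.39, 0.0577), nor that after herbal shisha in a fit to these 2 groups (0.0841). At 24 h ITCH rose after the heater by 0.44 (limma adjusted p = 0.00586), with control wells of 17.8, 18.5 and 11.9 FPKM; without the low control well, replicate 3, the value was 0.25 (0.0785). KLF10, an early-response repressor of transcription, held 10.4, 11.4 and 10.8 FPKM in control wells and 34.2 to 138 in exposed wells at 2 h, with no overlap. It rose by 2.31 after charcoal, 3.50 after herbal shisha, 3.24 after tobacco on charcoal and 2.71 after the heater (limma adjusted p from 5.81e-10 to 3.65e-07), and was not called at 24 h. DDIT4, a stress-induced inhibitor of the growth kinase mTORC1, ran closest to TXNIP of all list genes. Its control wells at 2 h held 14.8, 15.2 and 15 FPKM, against 5.11, 4.5 and 5.73 after charcoal alone. DDIT4 fell at 2 h by 1.39, 1.29 and 1.29 in the 3 charcoal exposures (limma adjusted p from 2.72e-07 to 7.94e-07) but gave -0.03 after the heater (0.914). At 24 h it fell by 1.29 after herbal shisha, 1.92 after tobacco on charcoal and 1.34 after the heater (limma adjusted p from 5.25e-09 to 5.38e-06), and charcoal alone gave -0.39 (0.126; 0.00888 in a fit to these 2 groups). The TXNIP promoter holds the forkhead motif, and FOXO1 and FOXO3 are forkhead genes of this list. Their means in control wells at 2 h were 1.36 and 6.62 FPKM. FOXO1 rose at 2 h in the 3 charcoal exposures by 0.63, 0.33 and 0.38 (limma adjusted p from 2.89e-07 to 0.000754). FOXO3 fell at 2 h after herbal shisha by 0.22 (limma adjusted p = 0.0268) and after the heater by 0.48 (4.2e-05). It gave 0.12 after charcoal alone (limma adjusted p = 0.269) and -0.17 after tobacco on charcoal (0.0958). At 24 h FOXO1 fell after tobacco on charcoal by 0.26 (limma adjusted p = 0.00468) and after the heater by 0.16 (0.047, lost in 8 of 11 alternatives). FOXO3 fell in these by 0.34 and 0.20, and after herbal shisha by 0.32 (limma adjusted p from 0.00103 to 0.0249). Its call after herbal shisha was lost in a fit to these 2 groups (0.0517), and charcoal alone gave 0.04 (0.802).

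Most tested genes of glucose uptake and its first metabolic steps fell at 24 h in the 3 exposures with shisha, in which TXNIP fell too. Of 10 tested genes, 7 fell and 2 rose after herbal shisha, 7 fell and 2 rose after tobacco on charcoal, and 7 fell and 3 rose after the heater, against 10.4%, 18.6% and 29.5% of all genes called lower. Of all genes, 16.5%, 25.9% and 34.3% were called higher in these comparisons. After charcoal alone 2 fell and 1 rose, against 3.82% of all genes called lower and 6.05% called higher. The list medians were -0.04 after charcoal, -0.36 after herbal shisha, -0.50 after tobacco on charcoal and -0.52 after the heater. SLC2A1, the transporter GLUT1 that TXNIP protein removes from the surface, held 89.8, 90 and 79.5 FPKM in control wells at 24 h and 43.6, 47.2 and 38.1 after the heater. It fell by 0.70 after herbal shisha, 0.84 after tobacco on charcoal and 0.99 after the heater (limma adjusted p from 8.15e-11 to 8.91e-07), and charcoal alone gave -0.06 (0.694). At 2 h SLC2A1 rose after herbal shisha by 0.22 (limma adjusted p = 0.0165; 0.0553 without herbal replicate 2) and after tobacco on charcoal by 0.34 (0.000755). HK2, a hexokinase, one of the enzymes that make the glucose phosphate which drives TXNIP transcription, fell at 24 h in all 4 exposures by 0.66, 1.00, 1.35 and 0.75 (limma adjusted p from 1.57e-09 to 0.000177). HK1, another hexokinase, held a mean of 63 FPKM in control wells at 24 h, against 10.1 for HK2. At 24 h HK1 fell after herbal shisha by 0.13 (limma adjusted p = 0.0114) and after tobacco on charcoal by 0.10 (0.0312). It rose after the heater by 0.09 (limma adjusted p = 0.0336) and gave 0.04 after charcoal alone (0.611). At 2 h, with TXNIP below control, HK2 rose in the 3 charcoal exposures by 0.55, 0.43 and 0.36 (limma adjusted p from 0.000244 to 0.00714; 0.0545 for tobacco on charcoal without control replicate 3). PGM1, which links glucose phosphate to glycogen, fell at 24 h by 0.43, 0.64 and 0.92 after herbal shisha, tobacco on charcoal and the heater (limma adjusted p from 6.48e-10 to 0.000325), and charcoal alone gave -0.21 (0.098; 0.0393 after scaling and 0.0206 in a fit to these 2 groups). PFKFB4, a regulator of phosphofructokinase, fell in the same 3 exposures by 0.84, 1.23 and 1.48 (limma adjusted p from 1.13e-09 to 6.41e-05). PFKFB4 also fell at 2 h after herbal shisha by 0.51 and after tobacco on charcoal by 0.62 (limma adjusted p = 0.00286 and 0.000517). Its relative PFKFB3 instead rose at 2 h in the 3 charcoal exposures by 0.89, 0.75 and 0.58 (limma adjusted p from 3.93e-07 to 8.86e-05), with 0.19 after the heater (0.147). At 24 h PFKFB3 fell by 0.58, 0.78 and 0.41 in the 3 exposures with shisha (limma adjusted p from 2.24e-06 to 0.00128), and charcoal alone gave -0.25 (0.127).

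The inflammasome, to which TXNIP protein can bind through NLRP3, had 6 of 10 genes tested, and NLRP3 itself was below the filter. The messenger of IL1B, whose protein the inflammasome matures, rose at 2 h in all 4 exposures by 0.69, 0.81, 0.49 and 0.72 (limma adjusted p from 3.07e-08 to 3.53e-05). At 24 h IL1B rose after the heater by 0.20 (limma adjusted p = 0.0285), a call lost on scaling (0.0613), in a fit to these 2 groups (0.0673) and without control replicate 3, heater replicate 1 or heater replicate 3 (0.0525 to 0.193). That of IL18, another cytokine matured there, rose at 2 h in all 4 exposures by 0.71, 0.58, 0.43 and 0.36 (limma adjusted p from 0.000432 to 0.0452). The IL18 call after the heater was lost when any 1 of the 6 wells compared was left out (0.0545 to 0.176), and that after tobacco on charcoal without control replicate 1 or tobacco replicate 1 (0.0585 and 0.0659). At 24 h IL18 rose after tobacco on charcoal by 0.76 (limma adjusted p = 0.000125). CASP1, the protease that matures both cytokines, fell after tobacco on charcoal at 2 h by 0.42 (limma adjusted p = 0.0129) and at 24 h by 0.54 (0.00164). It fell after herbal shisha at 24 h by 0.38 (limma adjusted p = 0.0308), lost in a fit to these 2 groups (0.184), with no filter (0.0553) and without control replicate 1 or 2 or herbal replicate 2 or 3 (0.0813 to 0.187). GSDMD, the pore protein of the pathway, fell after the heater at 24 h by 1.86 (limma adjusted p = 0.000478; 0.07 in a fit to these 2 groups), with 1 of the 3 wells listed at 0 and the others at 7.65 and 5.38 FPKM, against 13.3, 12.1 and 13.1 in control.

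**Figure D3:**
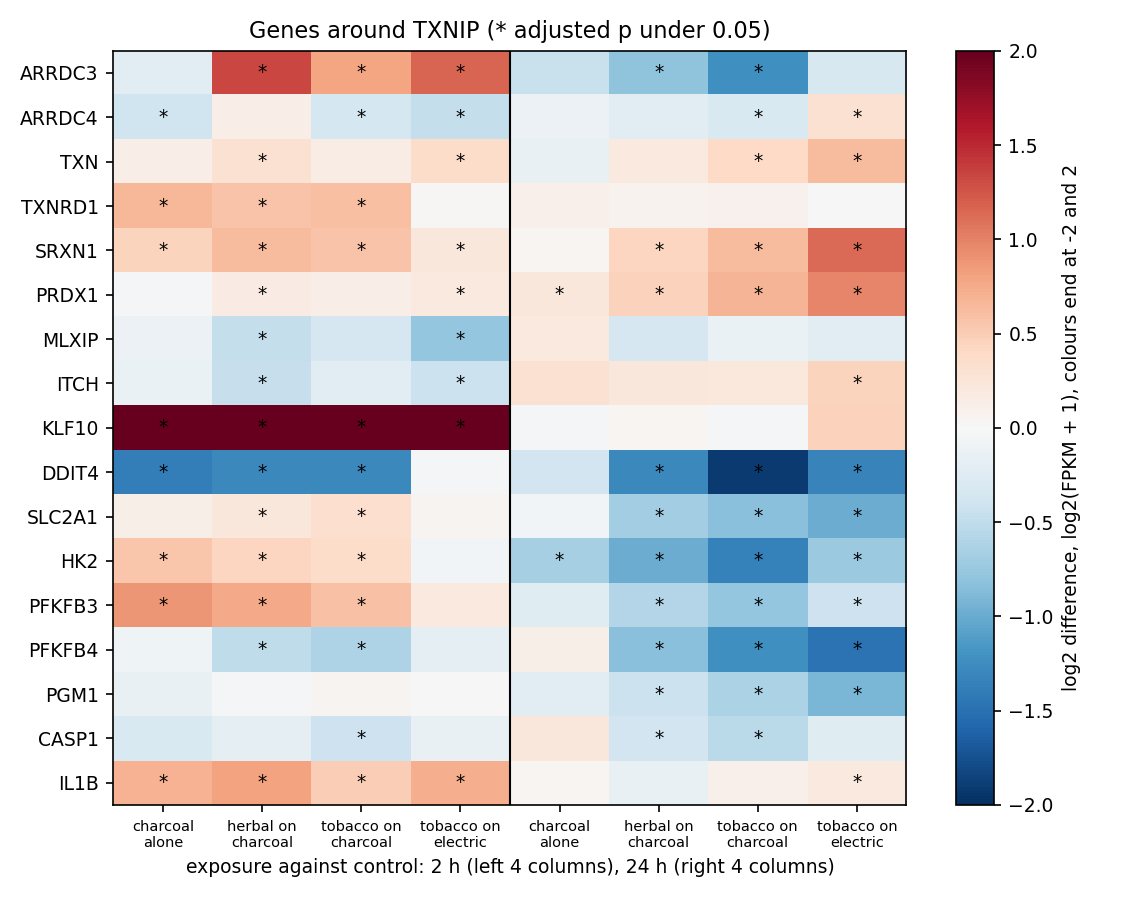
Log2 differences from the control of the same time for genes around TXNIP (rows) in the 4 exposures at 2 h and 24 h (columns), blue where lower and red where higher, with colours ending at -2 and 2 and an asterisk at a limma adjusted p under 0.05. KLF10 is red in all 2 h columns, and SLC2A1 and HK2 are blue at 24 h in both tobacco columns, where SRXN1 and PRDX1 are red.

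The genes whose level ran most like TXNIP over the 10 group means, in log2(FPKM + 1), are given as a description. ERMAP, a membrane protein of the butyrophilin family, had Pearson r = 0.98 over the 10 means, 0.92 over the 30 libraries, 0.87 over the 15 libraries at 2 h and 0.88 over the 15 at 24 h. Its range was much smaller than that of TXNIP, from 3.55 ± 0.17 FPKM after charcoal at 2 h to 5.34 ± 0.126 in control at 24 h. ZNF33B (0.98 over means, 0.89 over libraries), PIGC (0.97 and 0.87), CARD8 (0.96 and 0.89), TNFAIP8 (0.94 and 0.90) and PPP1R3G (0.94 and 0.89) followed, as did ZNF280D (0.94 and 0.76) and CSNK1G1 (0.98 and 0.70). For these genes other than CSNK1G1, r ran from 0.63 to 0.80 at 2 h and from 0.56 to 0.89 at 24 h, ZNF280D being lowest at both times. ZNF33B, CARD8, PPP1R3G and ZNF280D lay near the filter of 1 FPKM, with highest group means of 2.09, 1.96, 1.66 and 1.78 FPKM (control at 24 h). CSNK1G1 stood second by group means but at 0.48 over the libraries at 2 h and 0.56 over those at 24 h. Its wells varied within some groups, as in control at 2 h (8.74 ± 2.17 FPKM), and group means hide this spread. In all, 30 of 8530 genes had r of 0.9 or more with TXNIP over the means and 18 had -0.9 or less. All these r share the same libraries, and 2 h and 24 h wells differ in TXNIP level in every condition.

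The mirror of TXNIP was led by BCL7B (r = -0.98 over means, -0.92 over libraries), CCND1 (-0.96 and -0.93), GET4 (-0.94 and -0.87) and NDEL1 (-0.93 and -0.88). CCND1, the G1 cyclin D1, held 23.5 ± 0.901 FPKM in control at 2 h against 68.2 ± 8.45 after charcoal alone, where TXNIP was lowest. At 24 h CCND1 held 13.8 ± 0.259 in control, 19.5 ± 7.45 after herbal shisha, 30.1 ± 12.2 after tobacco on charcoal and 27 ± 4.37 after the heater. After charcoal alone at 24 h it held 11.7 ± 0.459, below control, as TXNIP was. Of the list genes DDIT4 was nearest to TXNIP (r = 0.93 over means and 0.92 over libraries, rank 13). ARRDC4 (0.60, rank 1475) and ARRDC3 (0.49) were far down, and TXNRD1 ran the other way over the means (-0.82). Within the libraries of each time, TXNRD1 stood at -0.78 at 2 h but at -0.03 at 24 h. ARRDC4 stood at 0.56 and -0.08, ARRDC3 at 0.26 and 0.53, and DDIT4 at 0.78 and 0.89.

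**Figure D4:**
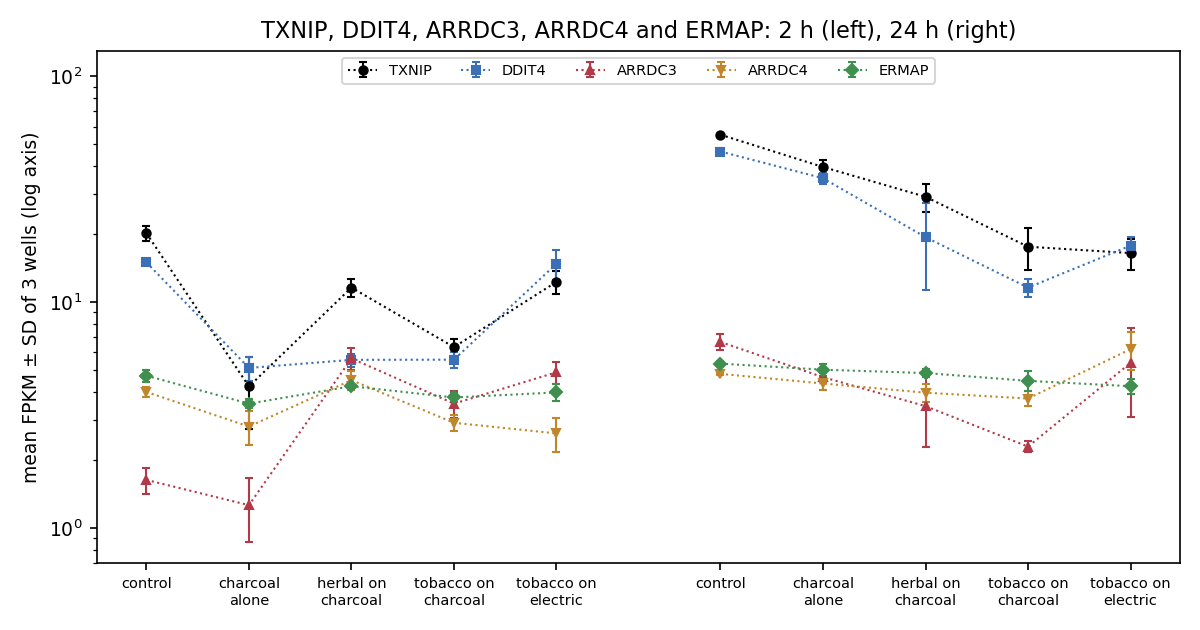
Mean level in FPKM (log axis) with SD of 3 wells for TXNIP, DDIT4, ARRDC3, ARRDC4 and ERMAP in the 5 conditions at 2 h (left) and 24 h (right). DDIT4 is low with TXNIP after the charcoal exposures at 2 h but not after the heater (14.8 FPKM, control 15), and ARRDC3 at 2 h is above control in the 3 exposures with shisha but not after charcoal alone (1.26 FPKM, control 1.63), where TXNIP is lowest.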

How the data were processed

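RNA from 30 wells of BEAS-2B cells (10 groups, 3 wells each) was sequenced as single reads, per the labels' protocols. The submitters' processing notes name HISAT2 2.1.0, StringTie 1.3.4d and hg38; the sources used here do not give roles, annotation or strand setting. The deposited values are FPKM per transcript, per the file headers: 29190 rows and 22538 names per table, with sums of 199985 to 220259. Of 27 names damaged into dates, 26 were recovered from the row's identifier, and repeated names kept the row with the highest mean. A table of the whole series was not used. FPKM are not counts, so no count test was run. Genes with at least 1 FPKM in at least 3 libraries (8531) were fitted with limma 3.58.1 (trend, R 4.3.3) on log2(FPKM + 1), with 10 group means over all libraries and no block (20 residual degrees of freedom, prior 2.76). Adjustment was Benjamini-Hochberg over 8531 genes per comparison, with a threshold of 0.05; "rose" and "fell" are used of genes past it, and the pseudocount understates changes of low genes. The pooled spread understates the error of groups whose wells vary more and overstates that of the others. Relative depth is the most frequent ratio between libraries of values under 0.2 FPKM (41 to 84 of 1181 to 1678 genes within 0.1% per pair, against at most 0.878 in neighbouring windows); absolute depth is unknown. Sums and figures came from Python 3.11.15 (numpy 2.4.6, pandas 2.3.3, matplotlib 3.10.9). The fit was tried on simulated data with independent normal noise and the same spread of a gene in all groups. That trial does not cover groups whose wells vary more, or effects shared between wells.

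The gene, the lists and the tests were chosen with earlier results of these data known. Tests of TXNIP between exposures at 2 h were planned but are not reported, because those wells served in the choice of the gene. Other genes named were a fixed set of list genes, whose calls against control are given (TXN, TXNRD1, SRXN1, ARRDC3, ARRDC4, MLXIP, ITCH, KLF10, DDIT4, SLC2A1, HK2, CASP1 and IL1B), the 2 called genes with the smallest p in each list and comparison, of which a selection is printed, and the 8 genes with the highest and 4 with the lowest r with TXNIP. For PRDX1, FOXO1, PGM1, PFKFB4 and IL18, named in at least 1 comparison, the other calls against control are given too. HK1 was added beside HK2 for its level, and its calls were not tried under the alternatives. FOXO3 was added beside FOXO1 and PFKFB3 beside PFKFB4, and not all of their calls were tried. Genes of the lists that are not analysed here include TXN2, TXNRD2, MLX and PYCARD. The values of 1 gene of the glucose list are not reported here. Alternatives were a fit on the compared groups alone, a replicate block, no filter, median-of-ratios scaling, a pseudocount of 0.1 and leaving out each well. Promoter stretches are from RefSeq, GRCh38.p14.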

Additional observations from a re-analysis of the deposited data

Results flagged for a closer look

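TXNIP itself changed place between the times in 2 pairs of exposures, every well of one exposure lying above every well of the other at 2 h and below at 24 h. Herbal shisha differed from charcoal alone by 1.30 at 2 h and by -0.43 at 24 h, and the heater with tobacco differed from charcoal alone by 1.38 and by -1.22. This change between times was not tested, since the wells at 2 h chose the gene.

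Some genes around TXNIP were called against control in opposite directions at 2 h and 24 h after the same exposure. They were picked for this, so the size of the effect at 24 h minus that at 2 h, with its SE in the limma model, is given as a description with no test. HK2 gave -1.21 ± 0.14 after charcoal alone, -1.42 ± 0.14 after herbal shisha and -1.71 ± 0.14 after tobacco on charcoal. ARRDC3 gave -2.14 ± 0.25 after herbal shisha and -2.01 ± 0.25 after tobacco on charcoal. For SLC2A1 the values were -0.92 after herbal shisha and -1.18 after tobacco on charcoal (SE 0.10 each), and for PFKFB3 they were -1.33 and -1.36 (SE 0.14 each). FOXO1 gave -0.64 ± 0.10 after tobacco on charcoal. After the heater, ARRDC4 gave 0.77 ± 0.14, PRKAG1 0.63 ± 0.10 and PRDX4 -0.33 ± 0.07. ITCH gave 0.87 ± 0.19 there, and its value at 24 h was 0.25 in place of 0.44 without 1 low control well, replicate 3. Of the calls behind these values, those of ARRDC4 and ITCH were lost in some alternatives. So were that of SLC2A1 at 2 h after herbal shisha and that of HK2 at 2 h after tobacco on charcoal. Not every call of PFKFB3, PRKAG1 and PRDX4 was tried under the alternatives.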

How the results depend on the processing

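TXNIP kept its direction against control at both times under every alternative tried. At 2 h, the difference after tobacco on charcoal of -1.54 became -1.43 with median-of-ratios scaling and -1.67 with a pseudocount of 0.1. At 24 h, charcoal alone against control crossed the threshold in a fit to these groups alone (-0.47, limma adjusted p = 0.00708) and after scaling (-0.50, 0.0415). It also crossed it with a replicate block (-0.47, limma adjusted p = 0.0418). Herbal shisha against charcoal alone was no longer called with no filter (-0.43, limma adjusted p = 0.0609) or a pseudocount of 0.1 (-0.45, 0.0521), nor tobacco against herbal shisha in a fit to these groups alone (-0.72, 0.34). Why these calls moved was not tested. The list count for charcoal alone at 24 h was 12, not 6, in the fit to these groups alone.

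Leaving out each well gave, against control, -2.28 to -1.93, -0.83 to -0.71, -1.59 to -1.48 and -0.76 to -0.61 at 2 h (charcoal, herbal shisha, tobacco on charcoal, heater), and -0.50 to -0.40, -1.76 to -1.46 and -1.80 to -1.58 at 24 h after charcoal alone, tobacco on charcoal and the heater. After herbal shisha at 24 h TXNIP fell by 0.80 to 1.00. Between exposures at 24 h the ranges were -0.54 to -0.34 for herbal shisha against charcoal (called no longer without charcoal replicate 1 or 2 or herbal replicate 2 or 3), -0.85 to -0.55 for tobacco against herbal shisha (not called without replicate 1 of either), and -0.24 to 0.06 for the heater against tobacco on charcoal, above 0 without tobacco replicate 2 or heater replicate 1.

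For the other genes named, values of near 0 changed sign for DDIT4 after the heater at 2 h (0.05 after scaling, and -0.14 to 0.04 without each well, above 0 without heater replicate 1 or 2) and TXNRD1 there (-0.02 to 0.11 without each well, below 0 without heater replicate 1 or 2).

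Wells of the same replicate number were weakly alike, and whether the numbers stand for a pairing is not known. Correlations of deviations between wells of the same number ran from -0.11 to 0.18 at 2 h and -0.08 to 0.23 at 24 h. Their medians were 0.03 and 0.04, against -0.01 and -0.02 between wells of other numbers. On average, 12 of 15 wells at 2 h and 11 of 15 at 24 h correlated best with their own number, out of 3 numbers possible for each well. With the replicate number as a block, charcoal alone against control at 24 h was -0.47 with limma adjusted p = 0.0418, and no other TXNIP call changed. Absolute depth is unknown, so counting error cannot be given for any value.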
